A study of Mus musculus with 2 samples.

Results

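H3K36me3 domains higher in Dicer knockout (KO) than in wild-type (WT) cells are stretches of the genome where histone H3 trimethylated at lysine 36 gave more reads in KO at several neighbouring places. The members were chosen by the H3K36me3 reads themselves: events of the KO-higher H3K36me3 list at most 5 kb apart were joined, and regions of at least 3 events were kept. This gave 155 domains of 989 regions, holding 710 of the 1709 events of that list. The 6 lists of the series hold 21418 events of H3K27ac, H3K4me3 and H3K36me3. An event is 1 place where reads in one genotype exceeded those in the other.

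The Dicer KO and the Dicer WT cells are MSCs, immortalized and monoclonal, grown in Alpha-MEM with serum; the sample titles call them fibroblasts. Dicer is the enzyme that cuts microRNA precursors into mature microRNAs. Each list gives 1 value per genotype, so there is no replicate error and no test between genotypes, and a difference between genotypes cannot be told apart from a difference between 2 clones. The lists hold differences, not levels, so the cell type was not checked against its markers.

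H3K36me3 is laid down by SETD2, which travels with elongating RNA polymerase II, so the mark covers the bodies of transcribed genes and is low at their promoters. H3K4me3 marks active promoters, and H3K27ac marks active promoters and enhancers. Positions are given in mm9 as the lists give them. No annotation of that build was used here, so domains are named by position, and gene names, gene bodies and sequences are not given.

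Most domains were short. Of the 155, 73 had 3 events, 32 had 4, 21 had 5, and 13 had 8 or more. The median span from first to last event was 3584 bp (quartiles 1869 and 6142), and 12 domains spanned at least 10 kb. Events inside a domain were close together, with a median spacing of 790 bp in the median domain. Together the domains spanned 729654 bp and took 48.0% of the list's KO reads. The joining distance did not fall in an empty range, since 45 spacings inside regions were 4 to 5 kb and 38 gaps between regions were 5 to 6 kb.

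The median domain held 203 KO reads against 43.0 scaled WT reads. Scaled reads of H3K36me3 are WT reads multiplied by 0.575, the factor recovered from this list. Each list has its own factor. It was 2.1455 for WT reads in the KO-higher H3K4me3 list and 0.8495 in the KO-higher H3K27ac list. For KO reads in the WT-higher H3K4me3 list it was 0.4605. Equal scaled reads of different marks therefore stand for different numbers of reads. The summed ratio of KO over scaled WT reads had a median of 4.47 (quartiles 3.40 and 6.51) and ran between 2.28 and 58.2. Its 95% interval is the exact binomial interval of the unscaled reads and covers counting error only. The lower limit was above 2 in 151 domains. The list chose events for more reads in KO, and the lowest ratio of a member event was 2.04, so nothing is read from that count. A ratio of at least 5 was reached by 61 of the 155 domains, beside 29.5% of all 989 regions. Because the rule used these reads, nothing is read from that difference.

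**Figure D1:**
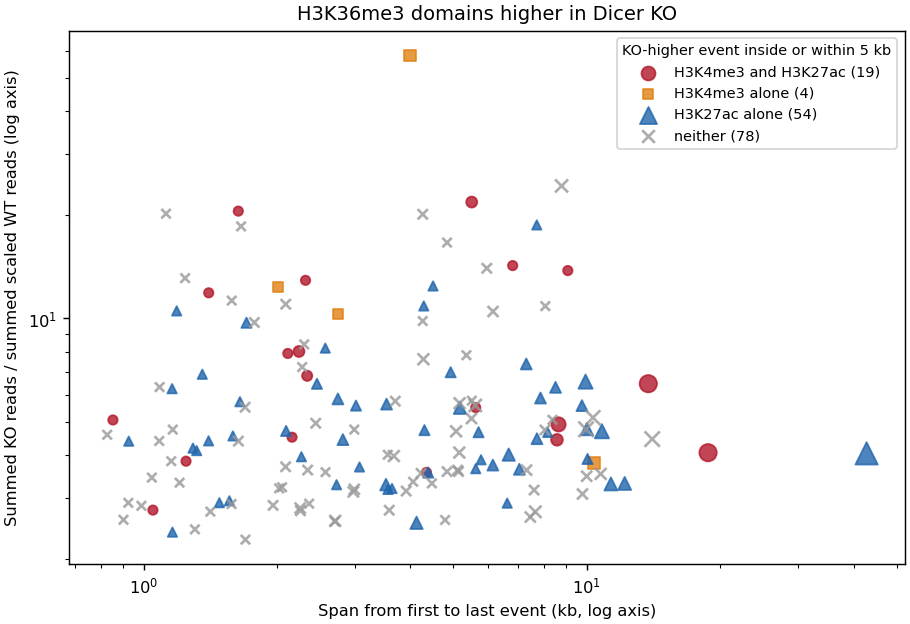
Each point is 1 of the 155 domains, placed by its span in kb and its summed ratio of KO over scaled WT H3K36me3 reads, both on log axes; point size grows with the number of events, and colour and shape show which KO-higher marks lay inside or within 5 kb. The longest domain, of 42796 bp, has a ratio of 4.05, and the highest ratio, 58.2, belongs to a domain of 3991 bp.

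Member events had a median of 49 KO reads and 10.3 scaled WT reads, and the list's other events 35 KO reads and 8.6 scaled WT reads. At least 5-fold apart were 307 of the 710 member events, beside 34.8% of the whole list. Regions of exactly 3 events, just inside the rule, had medians of 140 KO reads, 31.6 scaled WT reads, a ratio of 4.40 and a span of 2054 bp. The 165 regions of exactly 2 events, just outside it, had medians of 78 KO reads, 19 scaled WT reads, a ratio of 3.89 and a span of 929 bp. Across the 155 domains Spearman's rho between span and ratio was 0.088, and between KO reads and ratio, which share those reads, -0.29.

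The longest domain ran from 138088351 to 138131146 on chromosome 7. Its 28 events had 28.0 to 88.0 KO reads (median 47.2) and 3.4 to 20.8 scaled WT reads (median 12.4). Each event was listed for more reads in KO, so nothing is read from the distance between these ranges. The sums were 1400 KO reads and 345.5 scaled WT reads (ratio 4.05, 3.68 to 4.46). Single events had ratios between 2.37 and 9.71, and the intervals of 2 of the 28 left out the ratio of the whole domain. Among all 710 member events this held for 23, in 16 domains. KO-higher H3K27ac was listed at 5 places inside the domain, with ratios between 2.06 (1.74 to 2.44) and 3.61 (2.99 to 4.40). The nearest KO-higher H3K4me3 event was 567065 bp away.

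On chromosome 2, 16 events lay between 157951585 and 157970363, with 23.0 to 135.7 KO reads (median 60.7) and 5.7 to 43.4 scaled WT reads (median 12.3). The profile sloped the same way in both genotypes. The event at 157951892 had the most reads in each, 136 in KO and 43.4 in WT, and the last event the fewest, 23.0 in KO and 5.7 in WT. Past this low end, 851 bp from the domain, H3K4me3 at 157971214 had 294 KO reads and 43.5 scaled WT reads (ratio 6.77, 4.36 to 11.4). At 157971906 it had 1017 KO reads and 330 scaled WT reads (ratio 3.08, 2.60 to 3.67), beside an H3K27ac event at 157971922 with 402 KO reads and 100.4 scaled WT reads. The other H3K27ac events there, at the far side and inside, had ratios of 2.16 and 2.88.

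The domain with the most KO reads lay between 48782169 and 48795935 on chromosome 6. Its 16 events summed to 1619 KO reads and 250.5 scaled WT reads (ratio 6.46, 5.81 to 7.19). It was the one domain of the 155 with KO-higher H3K4me3 inside it. The 4 H3K4me3 events lay between 48789799 and 48791835, and the largest had 1143 KO reads and 269 scaled WT reads (ratio 4.25, 3.54 to 5.17). The ratios of all 4 ran between 2.41 and 4.88. No H3K36me3 event of the list fell between 48788940 and 48793165, and the 4 H3K4me3 events lay in that gap. So did 3 of the 5 KO-higher H3K27ac events inside or within 5 kb, with ratios between 3.79 and 5.43. The list holds differences, so the gap does not show that H3K36me3 was absent there. Left of the gap the events reached 227 KO reads and 35.6 scaled WT reads, and right of it 78.1 KO reads and 10.9 scaled WT reads.

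Between 118032326 and 118046376 on chromosome 13, 12 events had 43.0 to 128.7 KO reads (median 68.0) and 8 to 27 scaled WT reads (median 16.6), with a summed ratio of 4.46 (3.93 to 5.07). Reads were highest at the right end in both genotypes. The nearest KO-higher H3K4me3 event was 149670 bp away and the nearest H3K27ac event 8193 bp away. The other domain of 12 events, between 74232033 and 74241996 on chromosome 17, had 21.4 to 80.2 KO reads and 2.9 to 16.4 scaled WT reads per event, with a summed ratio of 4.76 (4.03 to 5.63). Next to it, 11 events between 74251369 and 74261697 had 41.2 to 93 KO reads and 8 to 20.7 scaled WT reads, with a ratio of 5.15 (4.44 to 5.97). On chromosome 6, 10 events between 137438213 and 137448150 had a ratio of 6.55 (5.63 to 7.64). The intervals of 3 of them left out that value, beside 23 of all 710 member events. On chromosome 12, 10 events between 111297034 and 111307854 had a ratio of 4.70 (4.03 to 5.51).

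**Figure D2:**
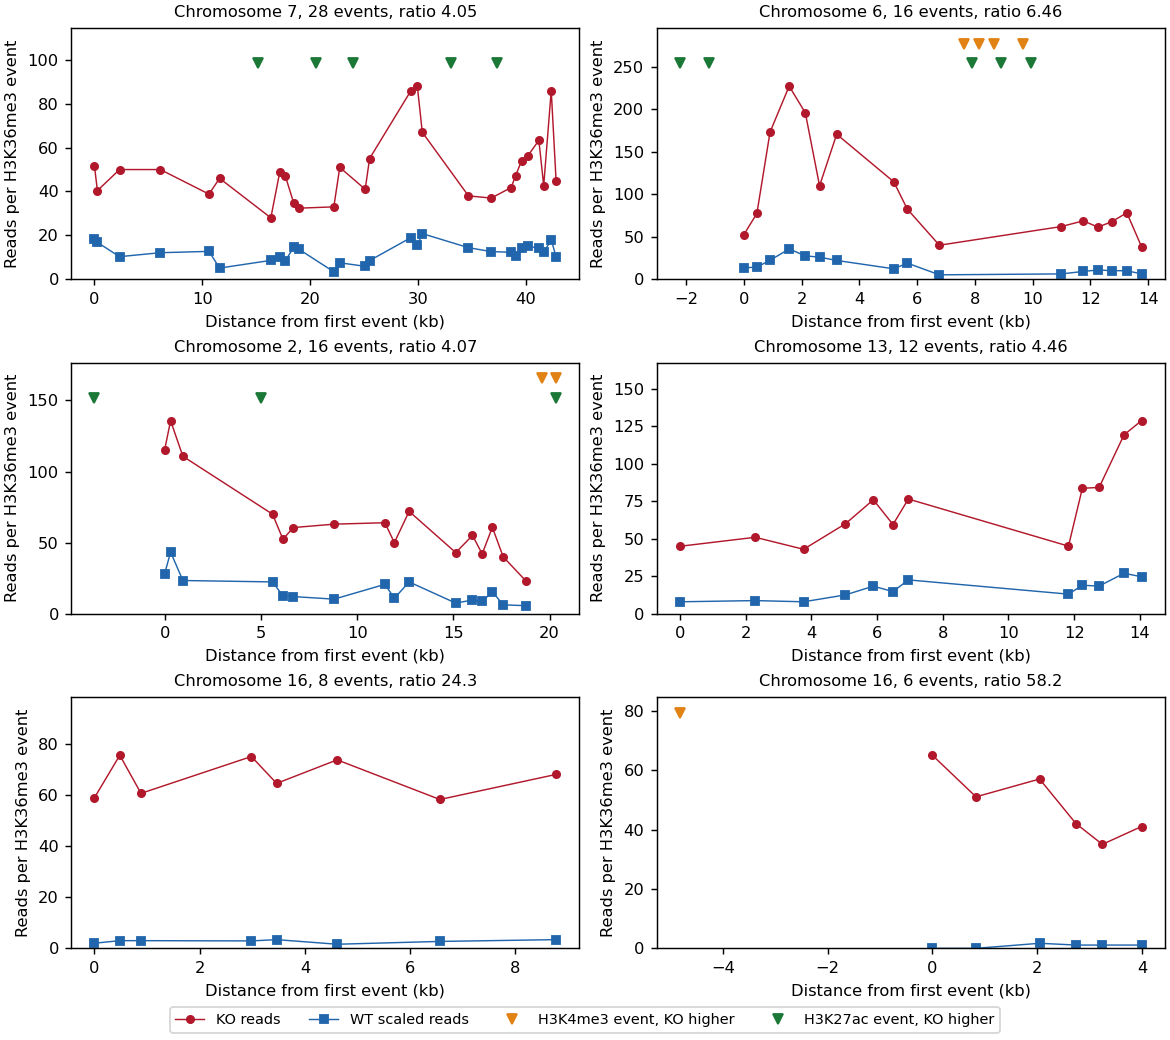
Reads per H3K36me3 event against distance in kb from the domain's first event, for KO (red circles) and scaled WT (blue squares), in the 4 domains with most events (of 2 domains with 12 events, the one with more KO reads) and the 2 with the largest summed ratio. Triangles mark KO-higher H3K4me3 and H3K27ac events inside or within 5 kb, and their height carries no value. KO lies above WT at every event because the list holds only events higher in KO. The domain of 28 events has 28.0 to 88.0 KO reads against 3.4 to 20.8 scaled WT reads.

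The largest ratios came with very few WT reads. Between 80300458 and 80304448 on chromosome 16 the 6 events had 65, 51, 57, 42, 35 and 41 KO reads, against 0, 0, 1.7, 1.1, 1.1 and 1.1 scaled WT reads. The summed ratio was 58.2 (29.2 to 124). For both events without WT reads, a floor of 3 WT reads before scaling was put in place of 0. The KO reads were 37.7 and 29.6 times that floor after scaling. These values leave out the counting error of the KO reads, so they are not lower limits. H3K4me3, 4818 bp away, had 229 KO reads and 15.0 scaled WT reads (ratio 15.3, 7.28 to 38.4), and the nearest KO-higher H3K27ac event lay 1561391 bp away.

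The next largest ratio was at 22075070 to 22083843, also on chromosome 16. Its 8 events had 58.2 to 75.5 KO reads (median 66.2) and 1.6 to 3.4 scaled WT reads (median 2.95), with a summed ratio of 24.3 (17.6 to 34.9). The profile was level in KO, while 38 WT reads before scaling over the whole domain are too few to show one. The nearest KO-higher H3K4me3 event was 66850 bp away. At 49154081 to 49159581 on chromosome 6, 5 events summed to 259.5 KO reads and 11.9 scaled WT reads (ratio 21.8, 13.8 to 35.4). H3K4me3 at 49163888 had 1033 KO reads and 38.8 scaled WT reads (ratio 26.6, 16.8 to 45.3). At 49164466 it had 881 KO reads and 82.3 scaled WT reads (ratio 10.7, 7.81 to 15.4). That interval overlapped the interval of the domain. H3K27ac was listed at 3 places inside or within 5 kb, with ratios between 16.8 (11.3 to 25.3) and 22.6 (16.7 to 32.3).

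The 5 largest ratios also include 20.5 (10.7 to 43.5) between 158135129 and 158136764 on chromosome 2. The last of them was 20.2 (10.5 to 42.8), between 142058106 and 142059229 on chromosome 1. Their WT reads, 5.7 scaled in each, give intervals that overlap each other and those of the values above. The smallest ratio was at 76079483 to 76081180 on chromosome 15, with 225 KO reads and 98.9 scaled WT reads (ratio 2.28, 1.86 to 2.79). Also among the 5 smallest was 50825198 to 50829327 on chromosome 7, with 1007 KO reads and 396 scaled WT reads (ratio 2.55, 2.31 to 2.81), the most WT reads of any domain.

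Domains also lay near one another. With neighbours at most 50 kb apart joined, 64 of the 155 fell into 29 groups, and 6 groups held 3 domains. On chromosome 17, the group between 74232033 and 74296995 had a summed ratio of 4.89 (4.42 to 5.41), with single domains between 4.47 and 5.15. That between 47450925 and 47492753 had 10.7 (8.39 to 13.8), with single domains between 9.74 and 13.1. That between 49610936 and 49700792 had 15.8 (11.7 to 21.5), with single domains between 12.4 and 18.7. On chromosome 16, single domains ran between 3.19 and 3.79 in the group starting at 25388527 and between 2.77 and 4.66 in that starting at 90872826, and on chromosome 6 between 4.52 and 6.55 in that starting at 137418348. These groups were picked for their size, and whether their domains are more alike than others was not tested.

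Promoter marks were not used by the rule. KO-higher H3K4me3 lay inside or within 5 kb of 23 of the 155 domains, 14.8% (exact Clopper-Pearson 95% interval 9.64 to 21.4), beside 5.36% of all 989 regions. Of the 834 regions of 1 or 2 events, 30 had it, 3.60% (2.44 to 5.10). KO-higher H3K27ac lay by 73 domains, 47.1% (39.0 to 55.3), beside 26.8% of all regions, and by 192 of the smaller regions, 23.0% (20.2 to 26.0). Both marks lay by 19 domains, H3K4me3 alone by 4, H3K27ac alone by 54 and neither by 78.

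Longer regions have a longer stretch to search, so single events were also compared with an equal window of 5 kb. KO-higher H3K4me3 lay near 10.7% (8.53 to 13.2) of member events and 3.70% (2.62 to 5.07) of the list's other events. For H3K27ac the shares were 40.1% (36.5 to 43.9) of member events and 23.1% (20.5 to 25.9) of the others. Events of 1 domain share their neighbours, so these intervals are too narrow. By size, H3K4me3 lay by 2.99% of regions of 1 event, 6.06% of those of 2 and 16.4% (8.79 to 26.95) of those of 3. It lay by 9.38% (1.98 to 25.02) of those of 4 and 13.5% (4.54 to 28.8) of those of 5 to 7, and by 3 of the 13 domains of 8 or more, so among the domains the share did not climb steadily with size, and the intervals overlap.

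**Figure D3:**
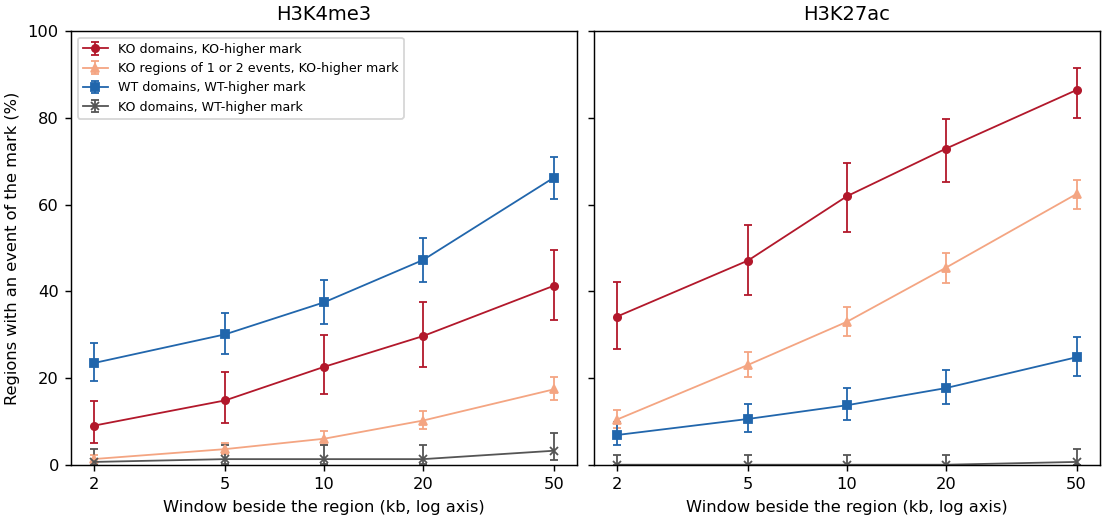
Percentage of regions with an event of H3K4me3 (left) or H3K27ac (right) inside or within a window of 2 to 50 kb (log axis), for KO domains and KO regions of 1 or 2 events with the KO-higher mark, WT domains with the WT-higher mark, and KO domains with the WT-higher mark; bars are 95% exact binomial intervals. KO domains lie above the smaller KO regions at each of the 5 windows in both marks, at 14.8% and 3.60% for H3K4me3 at 5 kb.

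Promoter marks of the opposite direction were rare beside the domains, and also beside all regions of the list. WT-higher H3K4me3 lay by 2 of the 155, 1.29% (0.157 to 4.58), beside 0.404% of all regions. WT-higher H3K27ac lay by 0 of the 155, beside 0% of all regions. That count allows a share of up to 1.94% by a floor of 3 counts, and the exact 95% interval reaches 2.35%. Both exceptions also had KO-higher H3K4me3, on the other side. On chromosome 19, H3K4me3 at 42120296, inside a domain from 42119644 to 42125260, had 117 scaled KO reads and 351 WT reads, and at 42127107 it had 1873 KO reads and 270 scaled WT reads (KO over WT 6.93, 5.78 to 8.37). On chromosome 12, beside a domain from 86225394 to 86229741, it had 41.8 scaled KO reads and 84.2 WT reads at 86222156, and 519 KO reads and 64.4 scaled WT reads at 86230918.

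Most H3K4me3 events listed beside the domains lay outside them. Of the 42 KO-higher H3K4me3 events inside or within 5 kb, 38 lay outside, and the 4 inside were those in the chromosome 6 domain above. In each of the 23 domains the H3K4me3 events all lay on 1 side of the domain's midpoint. These domains had a median span of 2745 bp, so an event could lie within 5 kb of both ends. Of 150 pairings of an H3K27ac event with a domain 41 were inside, in 25 of the 73 domains. The search reached 5 kb past each end of domains with a median span of 3584 bp, so most of the stretch searched lay outside. Whether the counts inside and outside depart from those lengths was not tested. The median distance from a domain to the nearest KO-higher H3K4me3 event was 102155 bp (quartiles 12699 and 491494), and to the nearest H3K27ac event 5808 bp (1166 and 21188). The H3K4me3 list has 738 events and the H3K27ac list 8323, so these distances do not compare the marks.

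The marks beside the domains were large within their lists. The 42 H3K4me3 events had a median ratio of 6.99, beside 4.10 over their list, and 30 of them were at least 5-fold apart, beside 39.3% of the list. The 145 distinct H3K27ac events had a median ratio of 3.65, beside 2.87 over their list, and 34 were at least 5-fold apart, beside 8.99% of the list. In turn, the median H3K36me3 ratio was 6.81 (quartiles 4.48 and 12.6) in domains with H3K4me3, 4.51 (3.67 and 5.86) in those with H3K27ac alone and 3.91 (3.15 and 5.73) in those with neither. These ranges overlap.

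Domains with both marks varied in size. Between 9895358 and 9903993 on chromosome 12, 10 events had a ratio of 4.92 (4.08 to 5.93), and the intervals of 3 of them left out that value. H3K4me3 1000 bp away had a ratio of 6.05 (3.80 to 10.2), while the domain's 5 H3K27ac events had ratios between 2.11 and 4.39. Between 95834218 and 95842785 on chromosome 11, 6 events had 381 KO reads and 85.9 scaled WT reads (ratio 4.44, 3.67 to 5.41), and H3K4me3 at 95843632 had 1006 KO reads and 233 scaled WT reads (ratio 4.32, 3.53 to 5.29). The other H3K4me3 event there had a ratio of 2.94, and both H3K27ac events 4.34 and 6.23. Between 58641660 and 58643901 on chromosome 12, 5 events had a ratio of 8.02 (6.01 to 10.9), while its 3 H3K27ac events had ratios between 5.63 and 9.29. Its 3 H3K4me3 events had ratios between 2.30 and 6.77, and summed to 2386 KO reads and 618 scaled WT reads (ratio 3.86, 3.42 to 4.38), an interval below that of the domain.

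Across the 23 domains with KO-higher H3K4me3, log ratios of that mark and of H3K36me3 had a Pearson's r of 0.50 and a Spearman's rho of 0.40, and across the 73 with H3K27ac 0.48 and 0.33. These are descriptions over places in the same libraries. With the H3K4me3 events of a domain summed, the highest H3K4me3 ratio, 17.6 (10.4 to 32.4), was beside 48867506 to 48870250 on chromosome 3, with 528 KO reads and 30.0 scaled WT reads. That domain had 131 H3K36me3 reads in KO and 12.7 in WT (ratio 10.3). Single H3K4me3 events reached higher ratios on few WT reads, up to 94.2 (21.7 to 655) at 119001778 on chromosome 2, with 339 KO reads and 3.6 scaled WT reads, beside a domain with an H3K36me3 ratio of 3.85.

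**Figure D4:**
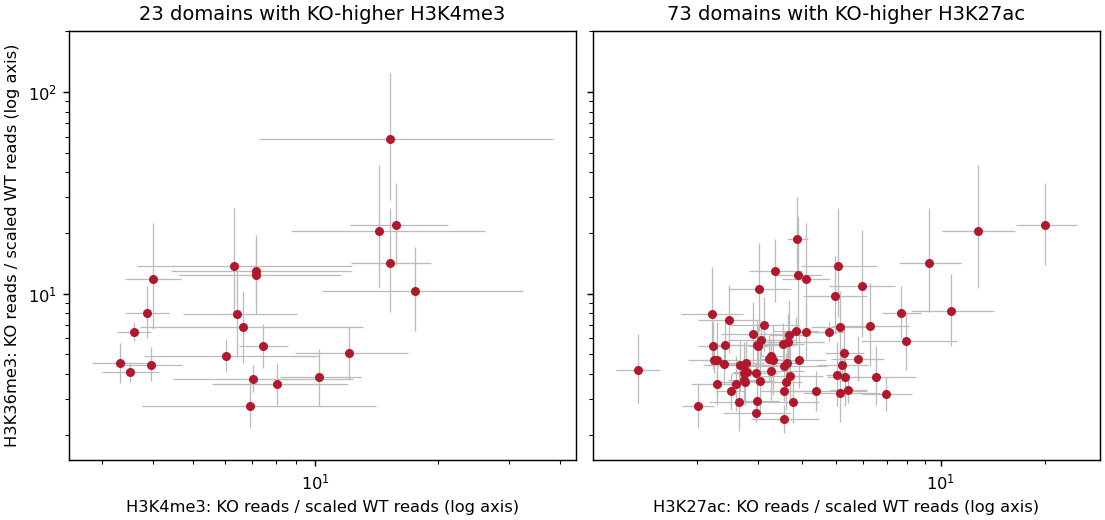
Summed KO over scaled WT ratio of H3K36me3 in a domain (vertical axis) against that of KO-higher H3K4me3 (left, 23 domains) or H3K27ac (right, 73 domains) inside or within 5 kb, on log axes; bars are 95% intervals of counting error. The highest summed H3K4me3 ratio is 17.6, and the highest summed H3K27ac ratio, 19.97, belongs to the domain of 5 events on chromosome 6 with an H3K36me3 ratio of 21.8.

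The ratio along the domains is given as a description, since every event summed here was chosen for more reads in KO and each length therefore had to be higher in KO. The 23 domains, each with H3K4me3 on 1 side of the midpoint only, were divided into 3 equal lengths from the end on that side. The summed ratios were 5.45 (5.05 to 5.90) over 2669 KO reads and 490 scaled WT reads, then 5.70 (5.15 to 6.31) over 1627 and 286, and 5.93 (5.50 to 6.40) over 3002 and 507. All 3 intervals overlap. For H3K27ac, 54 domains had events within 5 kb of an end on 1 side of the midpoint only. From the end on that side the ratios were 3.88 (3.69 to 4.08), 4.33 (4.05 to 4.63) and 4.62 (4.38 to 4.87).

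Chromosomes held unequal numbers of domains. Chromosome 2 had 24, chromosomes 6 and 12 had 19 each, and chromosomes 14 and X had 0. The events of the KO-higher H3K36me3 list were unequal too. Chromosomes 2, 6 and 12 held 208, 140 and 192 of the 1709, and chromosomes 14 and X held 12 and 6. Nothing is therefore read from the numbers of domains alone. On chromosome 12, 19 domains were higher in KO and 1 in WT, and on chromosome 9, 2 were higher in KO and 68 in WT. Background reads also differed by chromosome. In the H3K27ac lists, the KO over WT ratio of expected reads, relative to the median chromosome, was 1.27 on chromosome 12 and 0.632 on chromosome 9. Over the 20 chromosomes, all read from the same libraries, it and the share of domains higher in KO had a Pearson's r of 0.75 and a Spearman's rho of 0.74. Leaving out chromosomes 9 and 12 gave an r of 0.64 and a rho of 0.66. Its part in where domains were found was not tested. Divided by this background, the domains' ratio had a median of 4.24 and was at least 2 in 154 of the 155, which is given as a description, since the rule used the ratio.

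**Figure D5:**
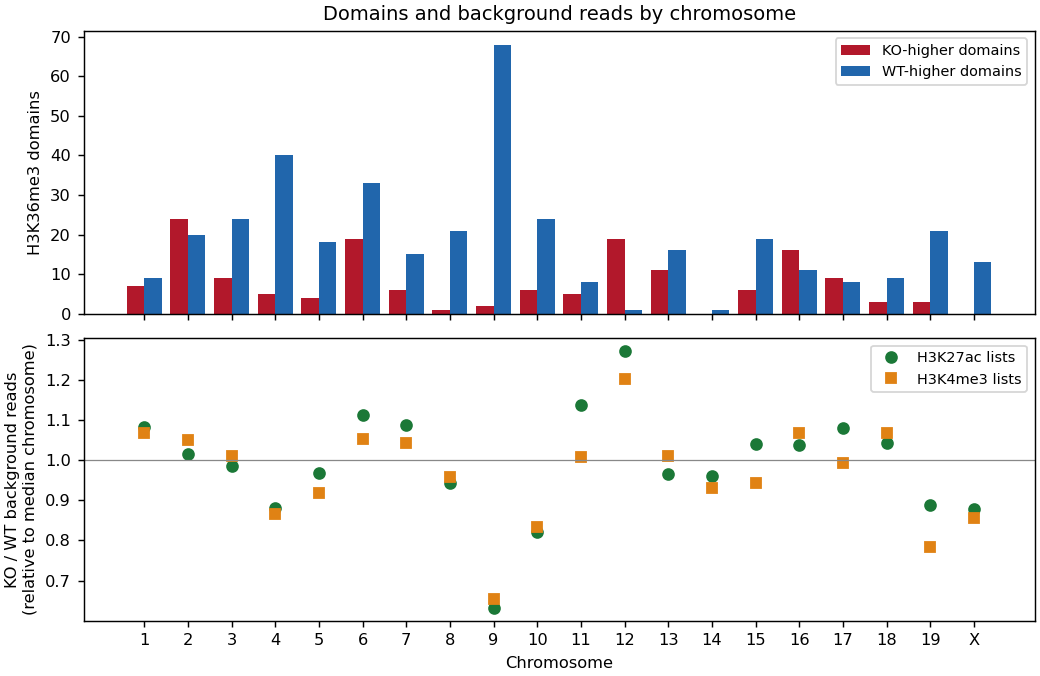
Top, number of H3K36me3 domains per chromosome, higher in KO (red) and higher in WT (blue); bottom, KO over WT ratio of background reads relative to the median chromosome, in the H3K27ac and the H3K4me3 lists. Chromosome 12 has 19 KO domains and 1 WT domain with the highest background ratio, and chromosome 9 has 2 KO and 68 WT domains with the lowest.

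Built by the same rule from the WT-higher list, 379 WT domains with 1703 events had a median span of 2963 bp and a median WT over KO ratio of 3.78 (quartiles 3.03 and 6.11). Marks of a domain's own direction differed between the 2 sets. H3K4me3 lay by 14.8% of KO domains and 30.1% (25.5 to 35.0) of WT domains, and H3K27ac by 47.1% of KO domains and 10.6% (7.65 to 14.1) of WT domains. The lists differ the same way, with 738 KO-higher and 5542 WT-higher H3K4me3 events and 8323 KO-higher and 1765 WT-higher H3K27ac events. Per the file names, the KO-higher H3K36me3 list came from GPS and the WT-higher one from GEM, which are different programs for finding events. The part of list length or of the program in these differences was not tested.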

How the data were processed

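Per the submitters' processing notes, TopHat 1.4 and build mm9 were used. Per the file names, event lists came from GPS (KO-higher H3K36me3, both H3K27ac lists) or GEM (the others), with 1 genotype set against the other and replicates pooled for H3K27ac; pooling is not stated for the other marks. The labels used here describe 1 H3K27ac sample per genotype. Per the file headers, each event has an estimated count of reads in the higher genotype, a scaled signal of the other, their fold ratio, an expected signal, −log10 q and p values, and shape scores, which were not used. The lists start at a −log10 q of 2.

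The scale was recovered as the step, between 0.3 and 3 in units of 0.0005, of which most scaled values were whole multiples (within 0.06), less the share that its size gives. In the KO-higher H3K36me3 list 96.3% of values came out whole. In the other 5 lists the share was 54.2% (WT-higher H3K4me3) to 94.4%, and intervals that rest on the lowest are the least sure. Reads had no molecular identifiers, so intervals cover counting error only. Library depth is unknown. No test between genotypes was made.

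Domains, marks and thresholds were chosen with earlier results of these data known. Domains are named by most events, span or reads, the 5 largest and smallest ratios, both marks, or opposite marks; the groups of 3 and the domain and event with the highest H3K4me3 ratios were chosen after their values were seen. Overlap with gene bodies was planned and not run, since no mm9 annotation was used here. The joining and the scale recovery were tested on simulated data. There the planted domains had short spacings and lay far apart, and every scaled value came from a whole number of reads. That test does not cover gaps close to 5 kb or lists in which few values come out whole. Software was Python 3.11.15 with SciPy 1.17.1, NumPy 2.4.6, matplotlib 3.10.9 and pandas 2.3.3.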

Additional observations from a re-analysis of the deposited data

How the results depend on the processing

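Of 65 alternative values, 42 stayed within the interval of the reported value, or within 1.5 times for counts, and 23 moved. The median span of 3584 bp became 1984 bp with merging at 2 kb, 7713 bp at 10 kb, 1848 bp with at least 2 events, 7310 bp with at least 5, and 2263 bp at a −log10 q of at least 5. The 155 domains became 320 with at least 2 events, 50 with at least 5 and 33 at that q, and the 710 events 363 with at least 5 and 123 at that q. That q gave a median ratio of 4.84, the highest of the alternatives, with 4.10 the lowest, at 2 events. Windows set the shares with a KO-higher mark inside or near: at 2 kb 9.03% for H3K4me3 and 34.2% for H3K27ac, at 10 kb 22.6% and 61.9%. Counted at the ends, they were 8.39% and 32.3% at 2 kb and 22.6% and 61.9% at 10 kb. With marks at least 3-fold apart, H3K27ac fell to 36.8%, and to 36.1% at the ends. The share with WT-higher marks became 0% with merging at 2 kb and with at least 5 events. Fewer events or narrower windows lower counts by construction. Division by chromosome background was chosen after seeing the data. No paired analysis was possible because each list gives 1 value per genotype, and no replicate could be left out. Few WT reads limit the largest ratios.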
